A study of Mus musculus with 8 samples.

Results

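The 10 genes Cd80, Cd86, Icosl, Cd40, Cd274, Pdcd1lg2, Cd69, Cd44, Il2ra and Fas encode surface molecules through which a B cell gives or receives costimulatory signals or shows that it has been activated. They were chosen by symbol, with earlier results of these data known, out of 41250 genes listed in the deposited gene table. All 10 were among the 14789 genes that passed a filter on low counts. RNA was sequenced from CD43-negative B cells of mouse spleens that were wild-type or carried, on both alleles, a deletion called 3'RR, hs3b-hs4 or 3'PAL, each within the enhancer region that lies 3' of the immunoglobulin heavy chain genes. The labels give all groups the mixed background 129/C58BL/6. Resting cells were taken fresh from a Lympholyte gradient and CD43 depletion. Stimulated cells had spent 48 hours with 5 µg/mL LPS, a bacterial lipopolysaccharide that activates B cells through TLR4, and were passed over a gradient again. Each of the 4 genotypes gave 1 library per state from a pool of 4 animals, so the 8 libraries hold no replicate of a group. The sources used here do not say if the resting and stimulated pools share animals, and no cells were cultured without LPS, so time in culture and LPS cannot be told apart.

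CD80 and CD86 on an antigen-presenting cell bind CD28 on T cells, which costimulates them, and CTLA-4, which restrains them. ICOS ligand binds ICOS, and PD-L1 (Cd274) and PD-L2 (Pdcd1lg2) bind the inhibitory receptor PD-1. CD40 is the receptor through which T cells help B cells, and it signals through TRAF adaptors to NF-kB. CD69 is an early activation antigen that holds lymphocytes in tissue by pairing with the sphingosine phosphate receptor S1PR1. CD44 is a hyaluronan receptor, CD25 (Il2ra) is the alpha chain of the high-affinity IL-2 receptor, and Fas is a death receptor. Activated B cells are known to carry more CD80, CD86, CD25, CD44, CD69 and Fas protein on their surface. The values here are RNA.

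In the gene table, whose build the submitters' processing notes give as GRCm38, Cd274 (chr19:29367455-29388095) and Pdcd1lg2 (chr19:29410919-29471157) lie on the plus strand with 22823 bases between them. Cd86 (chr16:36603869-36666081, minus strand) and Cd80 (chr16:38458933-38486933, plus strand) share a chromosome but lie 1792851 bases apart. Chromosome 2 holds Il2ra (chr2:11642792-11693191, plus strand), Cd44 (chr2:102811141-102901665, minus strand) and Cd40 (chr2:165055627-165072948, plus strand). The others are Icosl (chr10:78069360-78079525, plus strand), Cd69 (chr6:129267324-129275369, minus strand) and Fas (chr19:34290659-34327770, plus strand). None lies on chromosome 12, which holds the deleted region. Only 2 other listed genes overlap a member, Gm23731 at Cd44 and Gm27818 at Fas, with at most 1 and 2 counts in a library.

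RefSeq promoter windows (GRCm38.p6, 250 bases before to 50 bases after the start of transcription) were found for 7 of the 10 genes. Those of Il2ra, the gene with the largest rise, and of Icosl, Cd274 and Pdcd1lg2, the genes with the largest falls, are printed 5' to 3' on the gene's strand. Capitals mark matches to the motifs searched: NF-kB in Il2ra (where 2 matches overlap), Icosl and Pdcd1lg2, and interferon response in Cd274.
Il2ra (chr2:11642542-11642841, plus strand): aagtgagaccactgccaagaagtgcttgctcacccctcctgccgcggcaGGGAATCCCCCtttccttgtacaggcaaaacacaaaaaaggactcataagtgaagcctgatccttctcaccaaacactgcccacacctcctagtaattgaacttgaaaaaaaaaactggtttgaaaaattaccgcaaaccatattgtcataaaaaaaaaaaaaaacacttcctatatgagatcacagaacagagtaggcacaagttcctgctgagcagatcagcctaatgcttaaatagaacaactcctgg
Icosl (chr10:78069118-78069417, plus strand): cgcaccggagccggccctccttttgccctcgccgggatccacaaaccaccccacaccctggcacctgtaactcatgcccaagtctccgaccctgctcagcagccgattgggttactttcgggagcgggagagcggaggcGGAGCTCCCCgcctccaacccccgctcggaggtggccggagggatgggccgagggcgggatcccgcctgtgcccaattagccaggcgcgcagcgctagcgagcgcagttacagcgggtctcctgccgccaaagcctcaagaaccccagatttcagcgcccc
Cd274 (chr19:29367188-29367487, plus strand): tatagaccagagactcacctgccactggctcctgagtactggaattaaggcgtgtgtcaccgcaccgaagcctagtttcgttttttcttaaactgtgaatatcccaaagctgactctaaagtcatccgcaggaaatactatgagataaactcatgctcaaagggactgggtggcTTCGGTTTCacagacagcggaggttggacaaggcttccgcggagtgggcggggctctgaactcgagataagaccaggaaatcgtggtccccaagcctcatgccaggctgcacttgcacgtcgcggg
Pdcd1lg2 (chr19:29410669-29410968, plus strand): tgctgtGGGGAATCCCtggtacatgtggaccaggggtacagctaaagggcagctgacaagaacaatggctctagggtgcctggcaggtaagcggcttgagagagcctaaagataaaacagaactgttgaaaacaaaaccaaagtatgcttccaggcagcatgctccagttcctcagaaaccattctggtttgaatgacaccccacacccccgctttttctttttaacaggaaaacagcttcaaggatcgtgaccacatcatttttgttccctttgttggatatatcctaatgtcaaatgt

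Both strands were searched for 6 motifs: the NF-kB motif, AP-1 (TGANTCA), CRE (TGACGTCA), octamer (ATGCAAAT), interferon response (GAAANNGAA) and the CArG box. NF-kB matches stood in 3 of the 7 member promoters and in 8.46% of 32851 promoters of the same length. Counted from the start of transcription, they ended at -192 and -191 in Il2ra, at -102 in Icosl and at -235 in Pdcd1lg2. The interferon response match of Cd274 began at -76, and this motif stood in 8.56% of all promoters. AP-1, held by 7.81% of all promoters, matched Cd80 (TGATTCA at -42) and Fas (TGAGTCA at -211). CRE, octamer and CArG letters, held by 1.79%, 1.74% and 1.63% of promoters, were not found in the 7 windows, and the Cd44 window held none of the 6 motifs. The genes with an NF-kB match were 1 that rose after stimulation and 2 that fell. The windows also differed in base composition: Icosl held 68.0% G and C with 26 CG pairs, Il2ra 42.7% with 3, and the median of all promoters was 52.7% with 7. A match describes letters, not binding.

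Counts summed to between 17883683 and 28785192 per library, and levels are given as CPM (counts per 1000000 after TMM scaling, which corrects library sizes for composition). In these libraries 3 counts correspond to 0.104 to 0.168 CPM. Wherever 4 values are given for a state, they follow the order wild-type, 3'RR, hs3b-hs4 and 3'PAL. The B cell gene Ms4a1 (712 to 937 CPM) was high in all 8 libraries. Summed levels of 14 monocyte and macrophage markers were 427, 1459, 632 and 323 CPM at rest and 8.21 to 19.4 CPM after stimulation, where C1qc was at 0 and Csf1r at 0.52 CPM or less. The 9 dendritic cell markers summed to 101, 214, 149 and 68.3 CPM at rest and 68.1 to 83.1 CPM after stimulation, with Clec9a at 0 after stimulation. The 10 T cell markers summed to 18.9 to 47.8 CPM at rest and 2.11 to 8.14 CPM after stimulation, with Cd3e at 0.156 CPM or less throughout. Erythroid markers, 8 in all, went from 3107 to 21508 CPM down to 10.4 to 244 CPM. Macrophages and dendritic cells are known to express several of the 10 genes, and in such libraries fewer cells of a type and less RNA per cell cannot be told apart. The wild-type resting library also stood apart by 17974 CPM of AY036118, against at most 798 CPM elsewhere.

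After 48 hours with LPS 3 of the 10 genes rose, Il2ra, Fas and Cd44, and 5 fell, Cd274, Icosl, Pdcd1lg2, Cd69 and Cd86, while Cd80 and Cd40 did not pass the test. Of the 5 ligands 4 fell and Cd80 was not called. Of the other members Il2ra, Fas and Cd44 rose, Cd69 fell and Cd40 was not called. The test was edgeR's quasi-likelihood test over all 8 libraries with genotype and state as terms and a Benjamini-Hochberg adjusted p under 0.05 over all genes tested. By the same rule 34.5% of the 14789 genes were higher and 35.2% lower, so a call as such was common. The members' log2 fold changes had a median of -0.83 and a median size of 1.97, against -0.02 and 0.74 over all genes. In 2 of the 10 genes all 4 stimulated libraries were above all 4 resting ones, in 5 they were all below, and in 3 the states overlapped, compared with 4553, 4622 and 5614 of all genes tested. Here the 4 genotypes serve as replicates of the response, so each p measures only the spread between these libraries. All 14 macrophage markers and 7 of 9 dendritic cell markers fell in the same fit, and their part in the members' falls was not tested. The calls of the 8 genes each held when both libraries of any 1 genotype were left out.

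**Figure D1:**
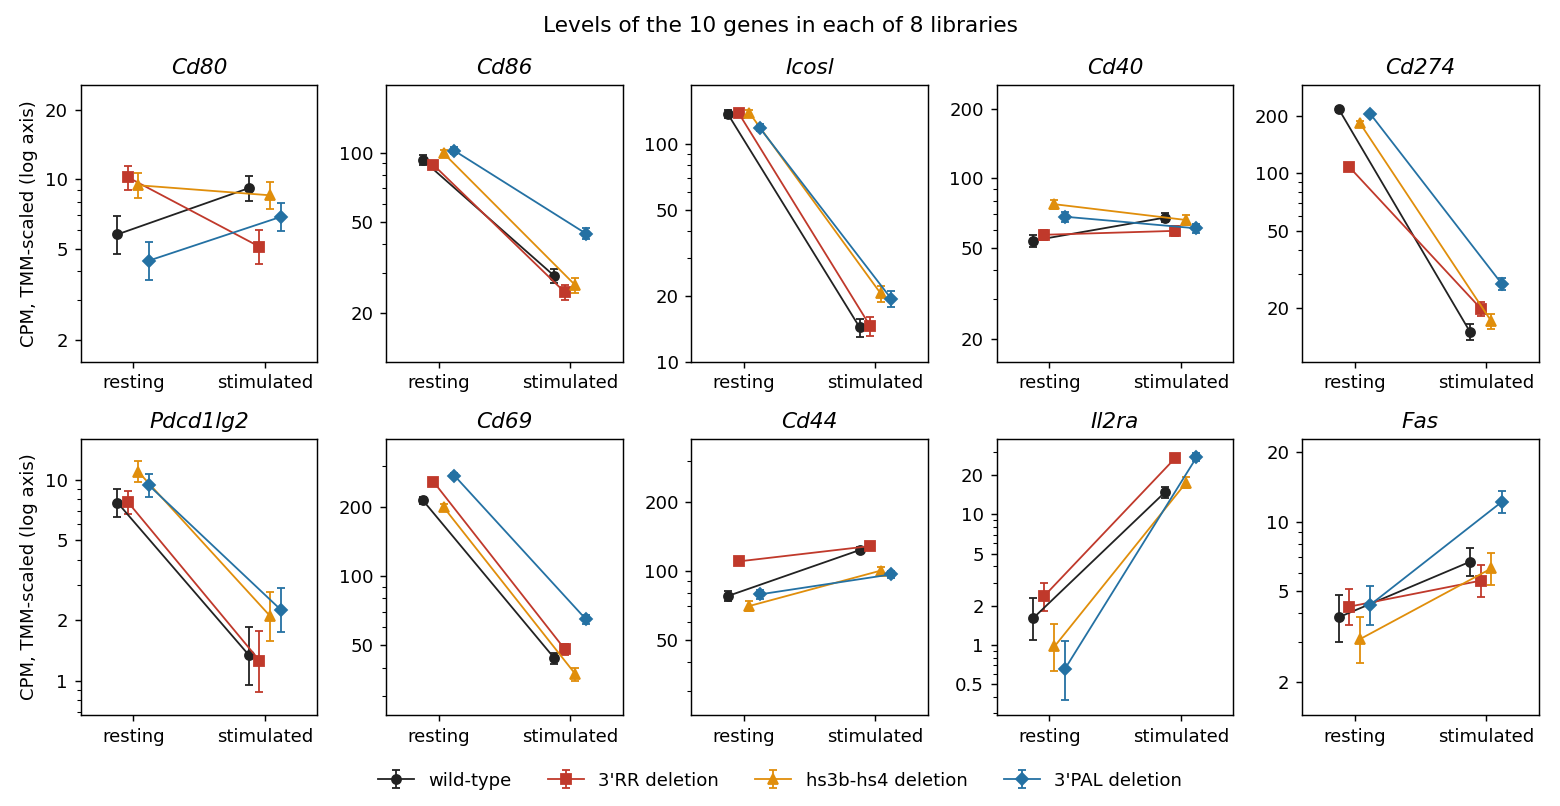
Level of each gene (CPM after TMM scaling, log axis) in resting and stimulated cells. Each point is 1 library, the line joins the 2 libraries of a genotype, and bars are exact 95% Poisson intervals that cover counting error only. Cd274, Icosl, Pdcd1lg2, Cd69 and Cd86 fell in all 4 genotypes, and the lines of Cd80 cross.

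Among the ligands of CD28, Cd86 stood at 92.9, 88.6, 99.2 and 102 CPM at rest and at 29.1, 24.7, 26.5 and 44.5 CPM after stimulation. No stimulated library reached a resting one, and the stimulated 3'PAL deletion library was the highest of its state. Cd86 fell by 1.65 ± 0.128 (SE) on the log2 scale (edgeR adjusted p = 3.7e-05), which is 2.3 to 3.74 times lower within a genotype. At rest its highest library was 1.16 times its lowest while the macrophage marker sum ran from 323 to 1459 CPM, and the share of macrophage RNA in its level was not tested.

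Cd80 was far rarer, with 5.76, 10.2, 9.42 and 4.43 CPM at rest and 9.16, 5.09, 8.52 and 6.86 CPM after stimulation. The states overlapped and the genotypes went different ways, which left a fitted change of 0.03 ± 0.283 (edgeR adjusted p = 0.93). Stimulated over resting, Cd80 was 1.59 in wild-type (95% interval 1.27 to 2.01) and 1.55 in 3'PAL deletion cells (1.22 to 1.98), but 0.501 in 3'RR deletion cells (0.406 to 0.617) and 0.904 in hs3b-hs4 deletion cells (0.749 to 1.09). All intervals on a ratio of 2 libraries are exact conditional binomial intervals and cover counting error only.

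Icosl, the ligand of ICOS, was at 137, 139, 139.7 and 119 CPM at rest and at 14.4, 14.6, 20.6 and 19.5 CPM after stimulation. Every stimulated library was below every resting one, and the fitted change was -2.97 ± 0.137 (edgeR adjusted p = 7.6e-06). Within a genotype the level was 6.12 to 9.54 times lower.

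Both ligands of PD-1 fell. Cd274 stood at 216, 108, 183 and 204 CPM before and at 14.9, 19.8, 17.0 and 26.6 CPM after stimulation. The resting 3'RR deletion library was the low one of its state, and no stimulated library came near it. The fitted change was -3.16 ± 0.227 (edgeR adjusted p = 2.8e-05), and within a genotype Cd274 was between 5.46 (3'RR deletion) and 14.4 (wild-type) times lower.

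Pdcd1lg2, its neighbour on chromosome 19, was far rarer. Its resting levels were 7.68, 7.72, 10.9 and 9.35 CPM and its stimulated levels 1.34, 1.26, 2.1 and 2.26 CPM, from 34 to 64 counts in each stimulated library. The states did not overlap, and Pdcd1lg2 fell by 2.38 ± 0.161 on the log2 scale (edgeR adjusted p = 2.3e-05). Their receptor went the other way: Pdcd1, which encodes PD-1 and is known in activated B cells as well as T cells, had at most 0.212 CPM in a resting library and 4.51, 12.1, 11.0 and 9.3 CPM in stimulated cells. Its fitted change was 6.86 ± 0.44 (edgeR adjusted p = 2e-05), whose size depends on the prior count because resting levels were near 0. Of 5 T cell markers tested 2 fell (Cd8a and Cd4) and 3 did not pass, and Cd3e was at 0.156 CPM or less at rest and at 0 after stimulation.

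**Figure D2:**
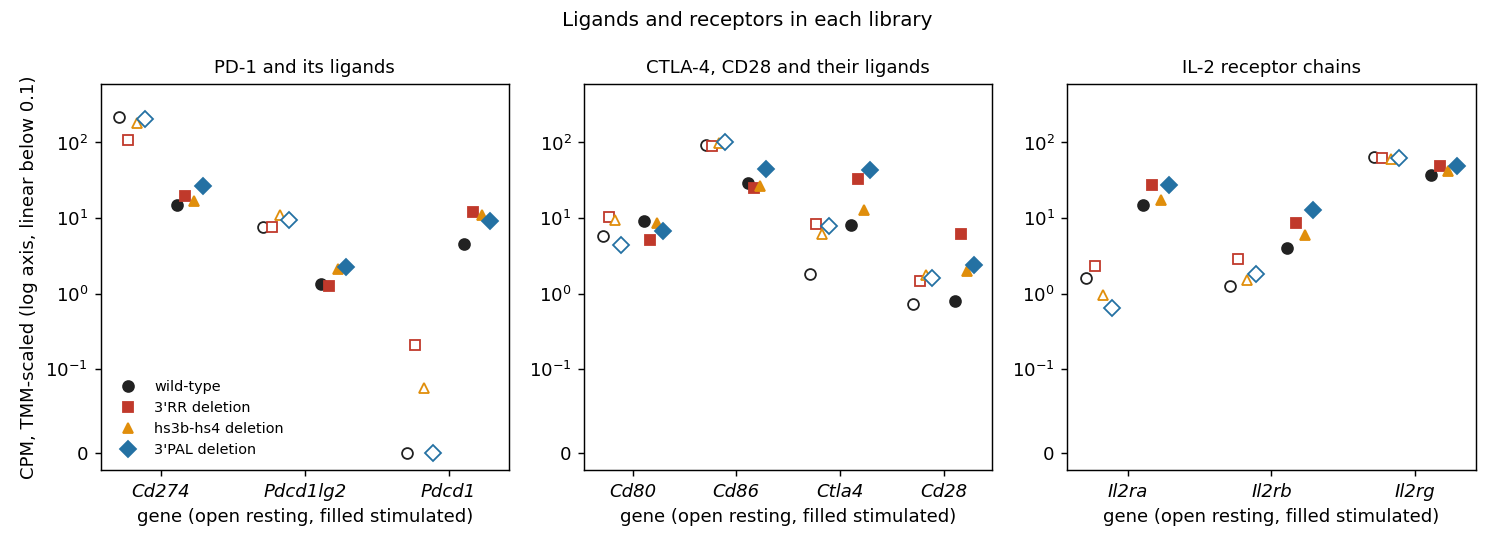
CPM in each library (log axis, linear below 0.1) of PD-1 and its ligands, of CTLA-4, CD28 and their ligands, and of the IL-2 receptor chains, with open symbols for resting and filled symbols for stimulated cells. Pdcd1 is at 0.212 CPM or less at rest and at 4.51 to 12.1 CPM after stimulation, while Cd274 is lower in each stimulated library.

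Of 5 T cell partner receptors and cytokines tested 2 rose, 1 fell and 2 did not pass. Over all genes 34.5% rose and 35.2% fell. Ctla4, the inhibitory receptor of CD80 and CD86, stood at 1.82, 8.36, 6.11 and 7.79 CPM at rest and at 8.21, 32.6, 13.0 and 43.1 CPM after stimulation (1.92 ± 0.223, edgeR adjusted p = 0.00023). Icos, the receptor of ICOS ligand, fell (0.779 to 2.54 CPM at rest, at most 0.112 CPM later; -5.17 ± 0.527, edgeR adjusted p = 0.00012). Cd28 was at 0.726 to 1.75 CPM at rest and 0.811 to 6.21 CPM after stimulation, and its change did not pass (0.80 ± 0.361, edgeR adjusted p = 0.084). Cd40lg, the ligand of CD40, was at 0.0389 CPM or less in all 8 libraries.

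Against 34.5% of all genes higher and 35.2% lower, 6 of 22 other costimulation and activation molecules tested rose, 9 fell and 7 did not pass. Their median log2 fold change was -0.33. The rises included Tnfrsf8, which encodes CD30 (3.54 ± 0.214, edgeR adjusted p = 1.6e-05), from at most 0.615 to at least 3.92 CPM. Tnfsf4, the gene of OX40 ligand, rose from at most 0.369 to between 1.48 and 3.88 CPM (3.55 ± 0.251, edgeR adjusted p = 2.7e-05). Cd83, an activation antigen of B cells and dendritic cells, fell from 336 to 414 CPM down to 129 to 179 CPM (-1.29 ± 0.106, edgeR adjusted p = 4.6e-05). Tnfrsf8 and Tnfsf4 thus rose to levels of a few CPM, while Cd83 fell, as Cd86 did. Other TNF family genes of the list were mixed. Tnfsf9 rose (1.47 ± 0.239, edgeR adjusted p = 0.0012) and Tnfrsf14 fell (-0.52 ± 0.197, edgeR adjusted p = 0.049). Tnfrsf4, Tnfrsf9 and Cd27 did not pass.

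Cd40, the receptor for T cell help, was not called. It stood at 53.7, 56.9, 77.3 and 68.2 CPM before and at 67.6, 59.2, 66.0 and 60.7 CPM after stimulation. The ranges overlapped, and the fitted change was 0.00 ± 0.108 (edgeR adjusted p = 0.99). Stimulated over resting it was 1.26 in wild-type (1.17 to 1.36), 1.04 with the 3'RR deletion (0.971 to 1.12), 0.855 with hs3b-hs4 (0.8 to 0.912) and 0.89 with 3'PAL (0.831 to 0.952). The wild-type cells alone had an interval above 1, and those of the hs3b-hs4 and 3'PAL deletions lay below it.

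Below the receptor, 17 of 21 CD40 signalling genes fell, 3 rose and 1 did not pass, with a median log2 fold change of -0.65. Over all genes 35.2% fell and 34.5% rose. Rel, which encodes the NF-kB subunit c-Rel, went from 178, 127, 183 and 187 CPM to 31.8, 29.7, 35.6 and 42.2 CPM (-2.27 ± 0.0965, edgeR adjusted p = 6.5e-06). Traf5, an adaptor that binds CD40, fell by 1.84 ± 0.102 (edgeR adjusted p = 1.3e-05), and Map3k14, the kinase NIK of the noncanonical NF-kB pathway, fell by 1.69 ± 0.0969 (edgeR adjusted p = 1.4e-05). Tnfaip3, which encodes the NF-kB inhibitor A20, fell by 2.19 ± 0.172 (edgeR adjusted p = 3.8e-05). The 3 that rose, picked out after their values were seen, were Traf1 (0.68 ± 0.129), Nfkbia (0.52 ± 0.109) and Nfkb1 (0.27 ± 0.0806).

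Cd69, the most abundant member in CPM per kilobase of exon in both states, but placed 3 by kallisto TPM (transcript abundance per length) after stimulation, stood at 214, 258, 199 and 274 CPM at rest. After stimulation it stood at 44.0, 48.1, 37.5 and 65.0 CPM, so this activation antigen was lower in every stimulated library than in any resting one. The change was -2.30 ± 0.0931 (edgeR adjusted p = 5.7e-06), or 4.21 to 5.36 times lower within a genotype. The 3'PAL deletion library was the highest and the hs3b-hs4 deletion library the lowest in both states. S1pr1, the partner that CD69 is known to pull from the surface, fell from 205 to 254 CPM down to 15.6 to 40.1 CPM (-3.27 ± 0.21, edgeR adjusted p = 2e-05). Klf2, a transcription factor known to drive S1pr1, fell by 3.67 ± 0.236 (edgeR adjusted p = 2e-05).

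Cd44 rose least of the genes called. It stood at 77.7, 109.8, 70.2 and 78.9 CPM at rest and at 123, 128, 100.1 and 96.4 CPM after stimulation. Each genotype was higher after stimulation, by a factor of 1.16 to 1.58, but the resting 3'RR deletion library was above 2 stimulated ones. The fitted change was 0.42 ± 0.0967 (edgeR adjusted p = 0.0063), and without the genotype term it was 0.37 and did not pass (edgeR adjusted p = 0.056). Over all alternatives the adjusted p for Cd44 (edgeR, DESeq2 or limma-voom) ran from 0.0022 to 0.056. Of 12 genes listed as partners of CD44 and CD69, 9 fell, 2 rose and 1 did not pass, and the median was -1.28. By the same test 35.2% of all genes fell and 34.5% rose. Ezr, which encodes ezrin, a link between CD44 and the actin cortex, fell by 1.13 ± 0.0852 (edgeR adjusted p = 3.2e-05). Myl9, a myosin light chain known as a CD69 ligand and abundant in platelets, went from at most 8.32 CPM to at most 0.0372 CPM (edgeR adjusted p = 1.2e-05), beside platelet markers that fell from 12.1 to 58.9 CPM down to 1.13 to 1.43 CPM.

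Il2ra rose most. It stood at 1.61, 2.36, 0.973 and 0.656 CPM at rest, from 16 to 67 counts per library. After stimulation it stood at 14.8, 27.2, 17.5 and 27.4 CPM, and every stimulated library was above every resting one. The fitted change was 3.99 ± 0.323 (edgeR adjusted p = 4.4e-05), and within a genotype the ratio ran from 9.2 in wild-type (6.39 to 13.7) to 41.8 in 3'PAL deletion cells (25.6 to 73.5). The size of this rise depended on the counting: kallisto's estimated counts gave 6.78 to 9.72 CPM at rest, 25.7 to 42.5 CPM after stimulation and a fitted change of 2.20, and why the tables differ was not tested.

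The other chains of the receptor were split. Il2rb, the beta chain, rose from 1.25, 2.89, 1.52 and 1.84 CPM to 4.05, 8.55, 5.94 and 13.0 CPM (2.02 ± 0.238, edgeR adjusted p = 0.00024). Il2rg, the common gamma chain, went from 60.0 to 64.5 CPM down to 37.7 to 49.0 CPM. In the list of 11 IL-2 receptor signalling genes 3 rose, 5 fell and 3 did not pass, with a median of -0.43. By the same test 34.5% of all genes rose and 35.2% fell. Jak1, the kinase bound to the beta chain, fell by 0.84 ± 0.0945 (edgeR adjusted p = 0.00019), Stat5b fell by 0.54 ± 0.0957 (edgeR adjusted p = 0.0018), and Socs2, a feedback inhibitor of STAT5 signals, rose by 1.16 ± 0.219 (edgeR adjusted p = 0.0024). The ligand Il2 was at 0.396 to 1.09 CPM with no change called.

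Fas stood at 3.84, 4.27, 3.08 and 4.35 CPM at rest and at 6.7, 5.54, 6.26 and 12.2 CPM after stimulation. All stimulated libraries were above all resting ones, and the 3'PAL deletion library was the highest. The fitted change was 0.93 ± 0.2 (edgeR adjusted p = 0.0046), with ratios from 1.3 in 3'RR deletion (1.01 to 1.66) to 2.81 in 3'PAL deletion cells (2.25 to 3.52). Of 12 other genes of the Fas death receptor pathway 4 rose, 3 fell and 5 did not pass, with a median of 0.10. Over all genes 34.5% rose and 35.2% fell. Bid, which links death receptors to mitochondria, rose by 1.04 ± 0.173 (edgeR adjusted p = 0.0013). Tnfrsf10b, which encodes the TRAIL receptor, rose by 1.19 ± 0.146 (edgeR adjusted p = 0.00029), though by 0.37 with kallisto's estimated counts. Faim3, the Fc receptor for IgM once described as a Fas inhibitor, fell by 2.87 ± 0.195 (edgeR adjusted p = 2.3e-05). Fasl, the ligand, was at 0.328 CPM or less in every library.

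**Figure D3:**
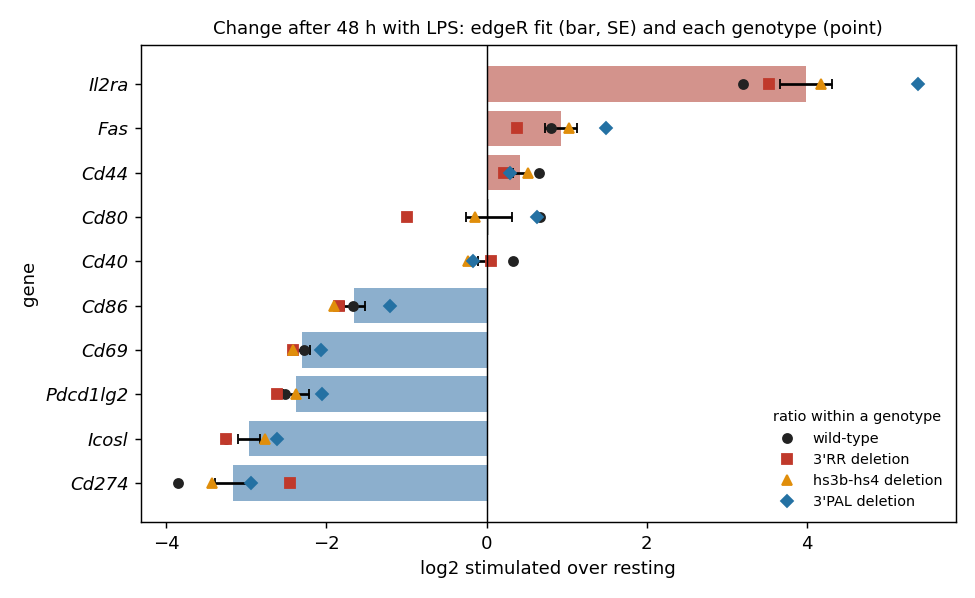
Change of each gene after 48 hours with LPS on the log2 scale, as the edgeR estimate with its SE (bar; red for a rise and blue for a fall that passed the test) and as the ratio within each genotype (point). Points of Cd80 and Cd40 lie on both sides of 0, and Cd274 spans a resting level 5.46 to 14.4 times the stimulated one.

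Per length (CPM per kilobase of exon, here called RPKM, as medians of the 4 genotypes), the order of levels at rest was Cd69 (145 RPKM), Cd274 (53.4), Icosl (50.1), Cd86 (26.2), Cd40 (18.4), Cd44 (11.6), Pdcd1lg2 (5.19), Cd80 (4.46), Fas (2.25) and Il2ra (0.254). Neighbours whose ranges over the genotypes overlapped were Cd274 and Icosl, Cd40 and Cd44, and Pdcd1lg2 and Cd80. Compared within each resting library, Cd40 was always above Cd44, while the order in the other overlapping pairs varied between libraries. After stimulation Cd69 (28.4 RPKM) was still first, followed by Cd40 (18.6) and Cd44 (16.5), which overlapped. The next 6, Cd86 (7.6), Icosl (6.18), Cd274 (5.07), Cd80 (4.52), Il2ra (4.39) and Fas (3.6), each overlapped with its neighbour, and Pdcd1lg2 (1.05) was last. Levels that ran from 0.254 to 145 RPKM at rest thus ran from 1.05 to 28.4 RPKM after stimulation. By kallisto TPM (transcript abundance per length) Cd69 was again first at rest, Cd40 was placed 2 instead of 5 and Cd274 5 instead of 2, and after stimulation Cd40 was first.

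Between genotypes no member was called. In the same additive edgeR fit, each mutant against wild-type over both states gave 0 of the 10 members, where 1.89% of all genes were called for the 3'RR, 0.135% for the hs3b-hs4 and 0.514% for the 3'PAL deletion. DESeq2 and limma-voom called 0 members. At an unadjusted edgeR p under 0.05 there were 0, 1 and 1 members, against 2022, 1316 and 1412 of the 14789 genes tested. The member in hs3b-hs4 deletion cells was Pdcd1lg2 (0.57 ± 0.222, edgeR adjusted p = 0.52), and the one in 3'PAL deletion cells was Cd69 (0.46 ± 0.126, edgeR adjusted p = 0.26), higher in both states. Of the listed partner receptors Ctla4 was called in 2 mutants, higher in 3'RR deletion (2.06 ± 0.321, edgeR adjusted p = 0.028) and in 3'PAL deletion cells (2.25 ± 0.321, edgeR adjusted p = 0.044). These calls were close to the threshold: over the alternatives the edgeR, DESeq2 or limma-voom adjusted p ran from 7.5e-07 to 0.054 and from 1.7e-07 to 0.088, and the latter call was lost without the 3'RR deletion libraries (edgeR adjusted p = 0.075). The comparisons share the wild-type libraries, in which Ctla4 was lowest in each state. In the same fits 9 of 14 macrophage, 7 of 8 erythroid and 1 of 5 tested T cell markers (Cd8a, 2.01 ± 0.368, edgeR adjusted p = 0.049) were higher in 3'RR deletion cells, and 7 of 8 erythroid markers were higher in 3'PAL deletion cells. Their part in the Ctla4 calls was not tested.

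Within a state a mutant can be compared with wild-type by 1 library each, without a test, and a size rule of at least 1 on the scale of log2(CPM + 1) with 10 CPM in the higher library was used. No member passed it in any of the 6 comparisons, but not all 10 had 10 CPM and so could pass. At rest 7, 7 and 6 members had that level in the 3'RR, hs3b-hs4 and 3'PAL comparisons, and after stimulation 7, 7 and 8. It was passed by 5.68%, 3.65% and 3.63% of genes with 10 CPM in resting 3'RR, hs3b-hs4 and 3'PAL deletion cells and by 3.24%, 1.47% and 3.06% in stimulated cells. Of the 60 ratios, which ran from 0.408 to 1.85, 23 had a counting interval above 1, 15 below 1 and 22 an interval that held 1. Such intervals narrow as counts rise, and the shares of all genes given beside them were not matched for level. At rest the interval was above 1 for 3, 4 and 3 members in 3'RR, hs3b-hs4 and 3'PAL deletion cells, against 30.5%, 28.5% and 24.8% of all genes tested, and below 1 for 1, 3 and 3, against 18.1%, 17.8% and 15.4%. After stimulation it was above 1 for 3 members with the 3'RR and 3 with the hs3b-hs4 deletion, against 21.8% and 16.8% of all genes, and below 1 for 3 and 2, against 21.1% and 17.2%. Among members the highest of the 4 libraries was a median of 1.43 times the lowest at rest, against 1.41 over all genes, and 1.79 times after stimulation, against 1.36. Scaling by library size alone would multiply the resting 3'PAL deletion ratios by 0.882 (-0.18 on the log2 scale) and shift those of the other comparisons by less than 0.1.

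**Figure D4:**
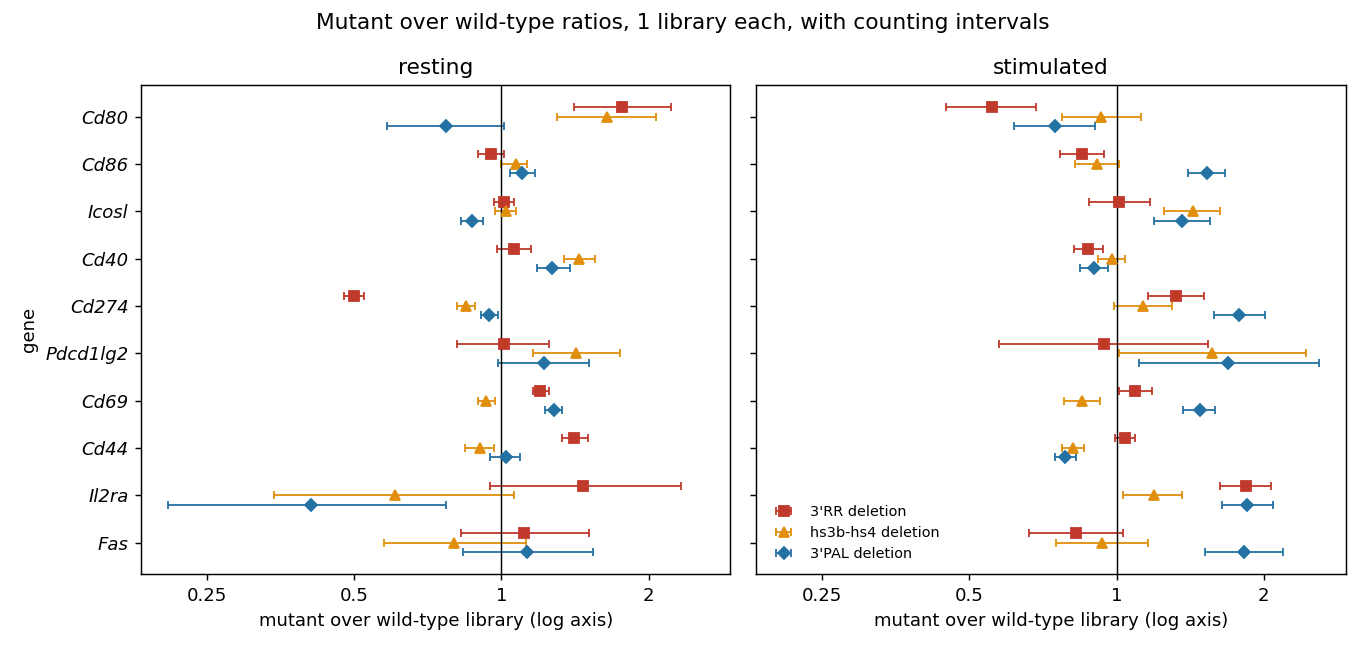
Mutant over wild-type ratio of each gene in resting and stimulated cells (log axis), 1 library each, with 95% conditional binomial intervals for counting error only. Resting Cd274 in 3'RR deletion cells lies at 0.5, and 7 of the 10 stimulated 3'PAL deletion ratios lie above 1.

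The stimulated 3'PAL deletion library, described further because its values stood out among the 6 comparisons once seen, had higher levels of most members than the wild-type one. With 1 library each, this compares libraries and not conditions. The counting interval lay above 1 for 7 of the 10, where 26.4% of all genes tested had such an interval, and below 1 for the other 3, against 24.8%. Members and all genes were not matched for level, on which the width of the interval depends. In this comparison 8 of the 10 members had 10 CPM, as did 8344 of all listed genes. The ratio was 1.85 for Il2ra (1.64 to 2.09), 1.82 for Fas (1.52 to 2.19), 1.78 for Cd274 (1.58 to 2.01), 1.69 for Pdcd1lg2 (1.11 to 2.59), 1.53 for Cd86 (1.4 to 1.67), 1.48 for Cd69 (1.37 to 1.59) and 1.36 for Icosl (1.19 to 1.55). Cd44 (0.785, 0.747 to 0.826), Cd40 (0.898, 0.841 to 0.959) and Cd80 (0.748, 0.618 to 0.905) were lower. Genes that rose and genes that fell after stimulation were thus both among the higher ones. Macrophage markers summed to 9.65 CPM in that library and 8.21 CPM in the wild-type one, and dendritic cell markers to 71.6 and 68.3 CPM. Most of the dendritic cell sum was Flt3, at 48.5 against 50.7 CPM. Itgax, at 2.05 against 0.564 CPM, and Zbtb46, at 1.87 against 1.09 CPM, were higher in the 3'PAL deletion library. Erythroid markers were at 244 against 10.4 CPM and plasma cell markers at 1570.2 against 970 CPM. The part of any of these cell types in the ratios was not tested.

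Among resting ratios Cd274 in 3'RR deletion cells stood out, picked after its value was seen. Its ratio to wild-type was 0.5 (0.477 to 0.524), just short of the size rule at -0.992 on the scale of log2(CPM + 1). After stimulation the same genotype was higher than wild-type (1.32, 1.16 to 1.51). In the other mutants resting Cd274 was 0.847 (0.813 to 0.884) and 0.945 (0.907 to 0.985) times wild-type. The resting 3'RR deletion library also had the highest macrophage and dendritic cell marker sums and the highest Cd44 (ratio 1.41, 1.33 to 1.5). Il2ra was 1.84 times wild-type in stimulated 3'RR deletion cells (1.63 to 2.07) and 1.19 times in hs3b-hs4 deletion cells (1.03 to 1.36). At rest, with 16 counts in 3'PAL deletion and 31 in wild-type cells, its ratio was 0.408 (0.208 to 0.769), but 0.711 by kallisto's estimated counts.

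The genotypes that lack hs3b and hs4 (3'RR and hs3b-hs4 deletion) were then compared with those that keep them (wild-type and 3'PAL deletion), with different genotypes as replicates. In this edgeR fit 0% of the 14789 genes, and no member, passed at rest, after stimulation or for the difference of the responses. At an unadjusted p under 0.05 there were 869, 394 and 307 genes and 1 member each, and DESeq2 called 74, 7 and 2 genes and no member. Cd80 was that member at rest, higher in cells that lack the enhancers (0.94 ± 0.301, edgeR adjusted p = 0.82), and also for the response, which was lower by 1.18 ± 0.422 on the log2 scale (edgeR adjusted p = 1). It was higher in stimulated than in resting cells in both genotypes that keep the enhancers and lower in both that lack them. At rest the macrophage, dendritic and T cell marker sums were likewise higher in both genotypes in which Cd80 was higher (1459 and 632 against 427 and 323 CPM for macrophages), and their part in the difference was not tested. After stimulation the member was Cd86, at 24.7 and 26.5 CPM against 29.1 and 44.5 CPM (-0.52 ± 0.199, edgeR adjusted p = 1).

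Transcript shares were taken from the estimated counts for 12 transcripts of 5 genes and compared between states by an exact two-sided permutation test of 4 against 4 libraries, which cannot give a p below 0.0286. After Benjamini-Hochberg adjustment over the 12 no transcript passed, and 5 reached the smallest p (exact permutation test, adjusted p = 0.0686). The largest shifts were in Cd44. Cd44-201, a form of 19 exons of this gene known for its variable exons, made up 55.8, 41.1, 50.7 and 44.9% of the gene's estimated counts at rest and 20.2, 25.3, 25.1 and 23.9% after stimulation. Cd44-207, with 14 exons, made up 0.284% or less in resting wild-type and hs3b-hs4 deletion cells, 12.7 and 13.0% in resting 3'RR and 3'PAL deletion cells, and 25.2 to 35.6% after stimulation. Together these 2 forms held 54.6% ± 2.95 (SD, n = 4) at rest and 52.5% ± 2.38 (SD, n = 4) after stimulation, with overlapping states, so the shift lay in the split between them. Cd44-203, a form of 9 exons, had a mean share of 38.1% ± 2.76 (SD, n = 4) at rest and 44.0% ± 2.22 (SD, n = 4) after stimulation. These shares are kallisto estimates, and no estimation error of them was used here.

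In Cd40 the transcript Cd40-202, of 8 exons against 9 in Cd40-201, went from 25.0% ± 4.4 (SD, n = 4) to 33.6% ± 1.83 (SD, n = 4) of the estimated counts, with the states not overlapping (exact permutation p = 0.0286). The level of the gene as a whole was not called, and Cd40-201 held 41.7% ± 4.48 at rest and 36.7% ± 1.99 after stimulation (SD, n = 4 each). Il2ra-201, the longest form of its gene, held 97.7% ± 0.804 at rest and 95.8% ± 0.813 after stimulation (SD, n = 4 each; exact permutation p = 0.0286, adjusted p = 0.0686). By TPM its share was 86.8% at rest and 78.1% after stimulation. Cd80, Icosl, Cd69, Cd274 and Pdcd1lg2 have a single transcript in the deposited tables. For Cd86 and Fas the main coding transcripts held 83.2% and 91.4% at rest and 83.3% and 90.1% after stimulation.

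**Figure D5:**
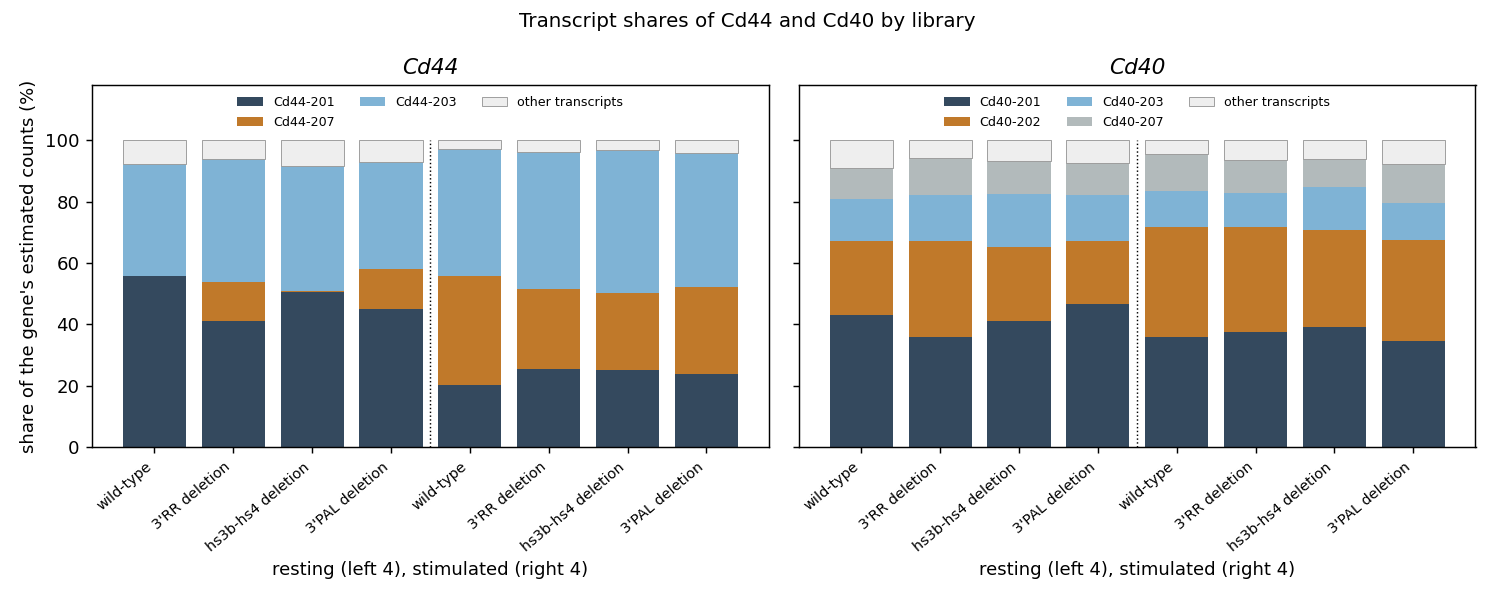
Share of each transcript in the estimated counts of Cd44 and of Cd40 (stacked to 100%) in the 4 resting and 4 stimulated libraries. Cd44-201 takes 41.1 to 55.8% at rest and 20.2 to 25.3% after stimulation, and Cd40-202 takes 20.7 to 31.1% and 31.5 to 35.8%.

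Genes with the most similar pattern over the 8 libraries were sought among 8194 named genes of sufficient level, by the root mean square distance of centred log2(CPM + 1). For Cd80 they were Sowahc (distance 0.181) and Icam1 (0.216), the gene of the adhesion ligand ICAM-1, against a median distance of 0.505. Icam1 was at 46.2 to 69.1 CPM at rest and 44.2 to 58.4 CPM after stimulation. Those nearest to Cd86 were Crebrf (0.134) and Chkb (0.136), to Cd40 Clasp2 (0.0395) and Camk2g (0.0578), and to Cd44 Caml (0.0851) and Phf23 (0.105). Icosl was nearest to Wdr96 (0.175) and to Btg1 (0.198), an antiproliferative gene that went from 1216 to 1402 CPM down to 157 to 249 CPM. Cd69 was nearest to P2ry10 (0.142), a lysophospholipid receptor gene, and Fbxo32 (0.164), Cd274 to Gla (0.215) and Trp53inp2 (0.244), and Pdcd1lg2 to Wdfy2 (0.0892) and Fbxl12 (0.115). Il2ra had the largest distances to its nearest genes, Spn (0.308) and H1f0 (0.338), against a median of 1.63 for Il2ra. Because this median differs between members, the distances do not rank the members by closeness of match. Spn encodes CD43, the antigen used to deplete cells before culture, and was at 6.31 to 15.4 CPM at rest and 45.6 to 130.4 CPM after stimulation. Fas was nearest to Pfkp (0.173), the platelet form of phosphofructokinase, and Sco1 (0.183). The 10 members themselves were left out of the search.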

How the data were processed

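The deposited gene counts and the estimated counts and TPM of transcripts cover 8 libraries of ribosome-depleted, stranded total RNA. The submitters' processing notes list STAR 2.4.0a, featureCounts of Subread 1.4.6-p1, kallisto 0.42.3 and the build GRCm38. The authors deposited whole-number counts per gene from featureCounts, and estimated counts and TPM per transcript, which came from kallisto per the file headers. Neither the annotation nor the strand setting of the counting is given in the labels. An entry without a gene name (0.00621 to 0.0342% of counts) and 92 spike-in entries, which held 0 counts, were left out. Levels are thus relative to the other RNA of a library and are not amounts per cell.

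Counts were filtered with filterByExpr, scaled by TMM and tested with edgeR 4.0.16 in R 4.3.3, in a model of state plus genotype (3 residual degrees of freedom) or of 4 groups by hs3b-hs4 and state (4 degrees). Alternatives used DESeq2 1.42.0, limma 3.58.1, other scalings and filters, rounded kallisto counts, and fits without either library pair. CPM intervals are exact Poisson intervals, and permutation tests used scipy 1.17.1. The text names all members, the 4 genes of lowest adjusted p in each of 6 pathway lists, the 2 genes nearest in pattern to each member, and a few others chosen after their values were seen, among them Cd40lg, Fasl, Il2, Il2rg and Traf1. A few genes that this rule or the marker lists hold are not reported here. Members and lists were chosen with earlier results of these data known. Fits were tested on simulated data.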

Additional observations from a re-analysis of the deposited data

Results flagged for a closer look

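Among the resting libraries, Icosl stood at 119 CPM in the 3'PAL deletion library and at 137 to 139.7 CPM in the other 3, a gap large against the group's range (Dixon's criterion for 4 libraries). It was 1 flag in 20 sets of 4 libraries, where chance flags about 1 in 20, and the 4 libraries are of different genotypes. After stimulation the same genotype had 19.5 CPM, within the range of the others.

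The response of Cd80 differed in direction between genotypes that lack hs3b and hs4 and those that keep them: it was lower after stimulation in both of the former and higher in both of the latter. In hs3b-hs4 deletion cells the ratio of 0.904 had a counting interval that held 1 (0.749 to 1.09) and was 0.971 by kallisto, so the lower direction rests on the 3'RR deletion libraries (0.501, 0.406 to 0.617). The difference of the responses was -1.18 ± 0.422 on the log2 scale, with an unadjusted p of 0.028 and an adjusted p of 1 by edgeR, so it did not pass.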

How the results depend on the processing

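The counts of members called stayed within 1.5 times in all 104 alternatives, and 0 members were called between genotypes in any of them. Of 130 alternative values for the members' changes after stimulation, 117 kept direction and call, and Cd44 lost its call with state as the only term (0.37, edgeR adjusted p = 0.056). The 12 that changed sign all belong to Cd80 and Cd40, which were never called. Cd80 (0.03) became 0.00 with DESeq2's size factors, -0.03 with library size, -0.02 with limma-voom, and -0.04 both with at least 10 counts in every library and with state alone. Cd40 (0.00) became 0.02 without red cell and macrophage genes, 0.03 without a filter and 0.06 with kallisto counts. Leaving out both libraries of a genotype gave -0.18 to 0.34 for Cd80 and -0.12 to 0.09 for Cd40.

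Of 294 values for named pathway genes 291 held, and Cd28 passed in 3 (0.83 to 0.98). For Tnfrsf10b the rise of 1.19 was 0.37 with kallisto counts. Ctla4 in a mutant lost its call in 4 of 20. Of 120 alternative ratios to wild-type 13 moved beyond their counting interval, and 12 of 20 places in the order of levels changed by TPM. The share of Cd86-201 moved by 0.0709 percentage points, or -1.86 by TPM. Counts of all genes called moved more: DESeq2 called 527 for the 3'RR deletion (edgeR 279), 186 for hs3b-hs4 (20) and 257 for 3'PAL (76), and without a filter edgeR called 657, 189 and 313. With at least 10 counts in every library it called 105, 8 and 19. The hs3b-hs4 count was 35 with kallisto counts, and without the 3'RR deletion libraries the counts were 8 for hs3b-hs4 and 41 for 3'PAL. Between genotypes lacking and keeping hs3b and hs4, edgeR without a filter called 71 genes at rest and 8 after stimulation, and 1 after stimulation with library size. The causes were not tested.

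The labels carry no replicate numbers. With genotype as a term, the fit of stimulation pairs the 2 libraries of a genotype, and its unpaired counterpart is the fit with state alone. The depth limits Il2ra at rest (16 to 67 counts) and Pdcd1lg2 after stimulation (34 to 64 counts). With 1 library per group, genotype differences within a state had no replicate.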
